A study of Mus musculus with 6 samples.

Results

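Translation initiation factors and elongation factors were described in C2C12, a cell line of mouse myoblasts that form myotubes once serum is lowered. All rows of the deposited expression table whose gene name begins with Eif or Eef followed by a digit were taken, without the Eif2ak kinases and the names ending in -ps, which gave 85 of 55413 genes. They were taken by name, but with earlier results of these data known. Libraries labelled FHL3-KO (3 replicates) were set against WT libraries (3 replicates). Every library came from C2C12 cells at day 4 of myogenic differentiation in medium with horse serum, and the groups differ by the genotype label alone. The labels name no clone for the FHL3-KO cells, so an effect of clone cannot be told apart from one of genotype. Separate cultures are not stated either, so the p-values below measure only the spread between these libraries, which may be technical.

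Initiation factors bring the small ribosomal subunit, the initiator methionyl-tRNA and the mRNA together. eIF2 delivers the initiator tRNA, eIF2B recharges eIF2 with GTP, eIF3 is the large scaffold on the small subunit, and the eIF4 factors bind the cap and unwind the leader. Elongation factor eEF1A then brings each aminoacyl-tRNA to the ribosome, the eEF1B proteins recharge eEF1A with GTP, and eEF2 moves the ribosome on by a codon. Skeletal muscle is known for exchanging the elongation factor paralog eEF1A1 for eEF1A2 after birth. Many mRNAs of the translation machinery start with a C inside a run of pyrimidines, the 5′ terminal oligopyrimidine motif through which mTORC1 controls their translation.

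The starts of 6 members described below are shown. They are the elongation factors Eef1a1, Eef1a2 and Eef2 and an eIF3 subunit that was higher in the libraries labelled FHL3-KO (Eif3f). The others are the 2 members with the most negative log2 change (Eif3a and Eif5b). Each start is shown as 60 bases of RefSeq sequence (GRCm38.p6), 30 on each side of the annotated start, written 5′ to 3′ on the strand of the gene. Capitals mark a run of at least 5 C or T letters that begins with C within 10 bases of the start. The windows are chr9:78481695-78481754 on the minus strand (Eef1a1), chr2:181156986-181157045 on the minus strand (Eef1a2), chr10:81176601-81176660 on the plus strand (Eef2), chr7:108934385-108934444 on the plus strand (Eif3f), chr19:60790664-60790723 on the minus strand (Eif3a) and chr1:37997980-37998039 on the plus strand (Eif5b).
Eef1a1: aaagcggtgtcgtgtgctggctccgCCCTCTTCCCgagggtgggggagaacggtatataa
Eef1a2: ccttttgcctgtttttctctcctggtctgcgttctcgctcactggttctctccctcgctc
Eef2: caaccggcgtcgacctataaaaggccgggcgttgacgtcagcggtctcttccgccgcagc
Eif3f: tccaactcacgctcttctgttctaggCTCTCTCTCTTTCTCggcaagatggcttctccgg
Eif3a: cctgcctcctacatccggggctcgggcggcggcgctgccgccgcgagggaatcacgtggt
Eif5b: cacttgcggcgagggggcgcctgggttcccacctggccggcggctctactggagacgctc

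Such a run began within 10 bases of the annotated start of Eef1a1 and Eif3f. In the Eef1a1 window the letters tatataa follow the run. Whether a marked run opens the mRNA was not tested. The run was found for 14 of the 51 members with a RefSeq promoter entry (27.5%), against 8804 of 27025 genes with an entry (32.6%). Among the members tested below, it stood in 5 of 20 that were higher in the libraries labelled FHL3-KO (25%), in 1 of 9 that were lower (11.1%) and in 5 of 18 without a call (27.8%). The run was searched on the strand of the gene only. A window without capitals says only that no such run begins within 10 bases of the annotated start. The Eef2 window, for example, holds the letters ctcttcc further downstream. The series title names the transcription factor YY1 as a partner of FHL3, so the YY1 core AAGATGGCG was searched on both strands from 250 bases before to 50 bases after each start. The core stood in 3 of 51 members (5.88%) and in 443 of 27025 genes (1.64%). These were Eif4e, which encodes the cap-binding protein, Eef1e1, an eEF1 and tRNA synthetase complex protein, and the Y-linked Eif2s3y. The matches of Eif4e (chr3:138527284-138527312 on the plus strand) and Eef1e1 (chr13:38658979-38659006 on the minus strand) are shown with the core in capitals. A letter match is a description and not evidence of binding.
Eif4e: agatcgatctAAGATGGCGactgtggaac
Eef1e1: gctgggccagAAGATGGCGgcggccgcg

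The deposited values were read as FPKM, fragments or reads per kilobase of gene and per size of the library. The header names no unit, so this was inferred from the values. As FPKM, the values can be set side by side between genes per length. No counts were used here and the depth of the libraries is unknown. FPKM sums were 477577 to 494176 in the libraries labelled FHL3-KO, against 424987 to 473369 in the WT libraries. RNA of Fhl3 itself, a LIM-domain protein gene, was 57.2, 53.5 and 58.9 FPKM in libraries labelled FHL3-KO, against 27.8, 30.03 and 33.7 FPKM in WT libraries (log2 change 0.87, SE 0.092, limma adjusted p = 0.000547). RNA of the targeted gene was thus higher in all 3 libraries labelled FHL3-KO, where a loss of the RNA would give lower values. A knockout label does not say what becomes of the RNA, and the label is used below only as a name. Whether labels or columns were exchanged, or whether the allele leaves the RNA, was not tested. An exchange would turn every direction given below. Summed FPKM of 10 markers of differentiated muscle was 13561 to 14134 under the FHL3-KO label, against 5687 to 6281 in WT, with 9 of 10 higher and none lower by the same test and none at 0. The sum of 8 markers of cycling myoblasts was 136 to 151 FPKM under the FHL3-KO label and 157 to 183 FPKM in WT, with none at 0. Of the 7 tested 1 was higher and 3 were lower. Ccnb1 averaged 29.8 FPKM under the FHL3-KO label and 18.5 FPKM in WT. Myf5 averaged 8.64 FPKM under the FHL3-KO label and 29.5 FPKM in WT. The 8 fibroblast markers summed to 288 to 325 FPKM under the FHL3-KO label and 560 to 627 FPKM in WT, with Thy1 listed at 0 in every library and Lum in all 3 FHL3-KO-labelled ones. Of the 6 tested 1 was higher and 3 were lower. Dcn averaged 12.1 FPKM under the FHL3-KO label and 152 FPKM in WT. Col1a1 averaged 8.67 FPKM under the FHL3-KO label and 4.16 FPKM in WT. The 6 neuron markers summed to 123 to 144 FPKM under the FHL3-KO label and 187 to 214 FPKM in WT, with Rbfox3 at 0 in every library and 2 of 3 tested lower. All 6 liver markers were listed at 0 in the libraries labelled FHL3-KO and summed to 85.0 FPKM in WT replicate 1, against 0.0208 and 0.0220 FPKM in the other WT libraries. In bulk RNA, fewer cells of a type and less RNA per cell cannot be told apart, and the part of these markers in the results below was not tested.

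Members were more often higher than lower in the libraries labelled FHL3-KO. Of 85 members, 60 reached a mean of 1 FPKM in at least 1 group and were tested on log2(FPKM + 1), a scale that understates changes of low genes. By limma with Benjamini-Hochberg adjustment over all 12528 genes tested and a threshold of 0.05, 28 members were higher (46.7%), 9 were lower (15%) and 23 had no call. Over all genes tested 40.8% were called, 19.7% higher and 21.2% lower. The median log2 change was 0.22 over the tested members and -0.0051 over all genes tested. All 3 values under the FHL3-KO label lay above all 3 WT values for 31 members and below them for 10, where 26.9% of all genes tested lay above and 26.9% below. A call together with an absolute log2 change of at least 0.5 was met by 18 members and by 26.4% of all genes tested. With the libraries scaled to the same FPKM sum, the calls over all genes became 1687 higher and 2962 lower, against 2462 higher and 2650 lower as deposited, and the members gave 24 higher and 11 lower. That scaling moved the median log2 change of all genes to -0.10. Quantile normalization gave 19 higher and 10 lower members, and 2571 higher and 2393 lower calls over all genes. The lower calls of members numbered 5 without FHL3-KO replicate 1, 5 without WT replicate 1 and 4 without WT replicate 2. Over all genes, leaving out WT replicate 2 left 1605 higher and 1667 lower calls and leaving out FHL3-KO replicate 1 left 1749 lower calls.

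**Figure D1:**
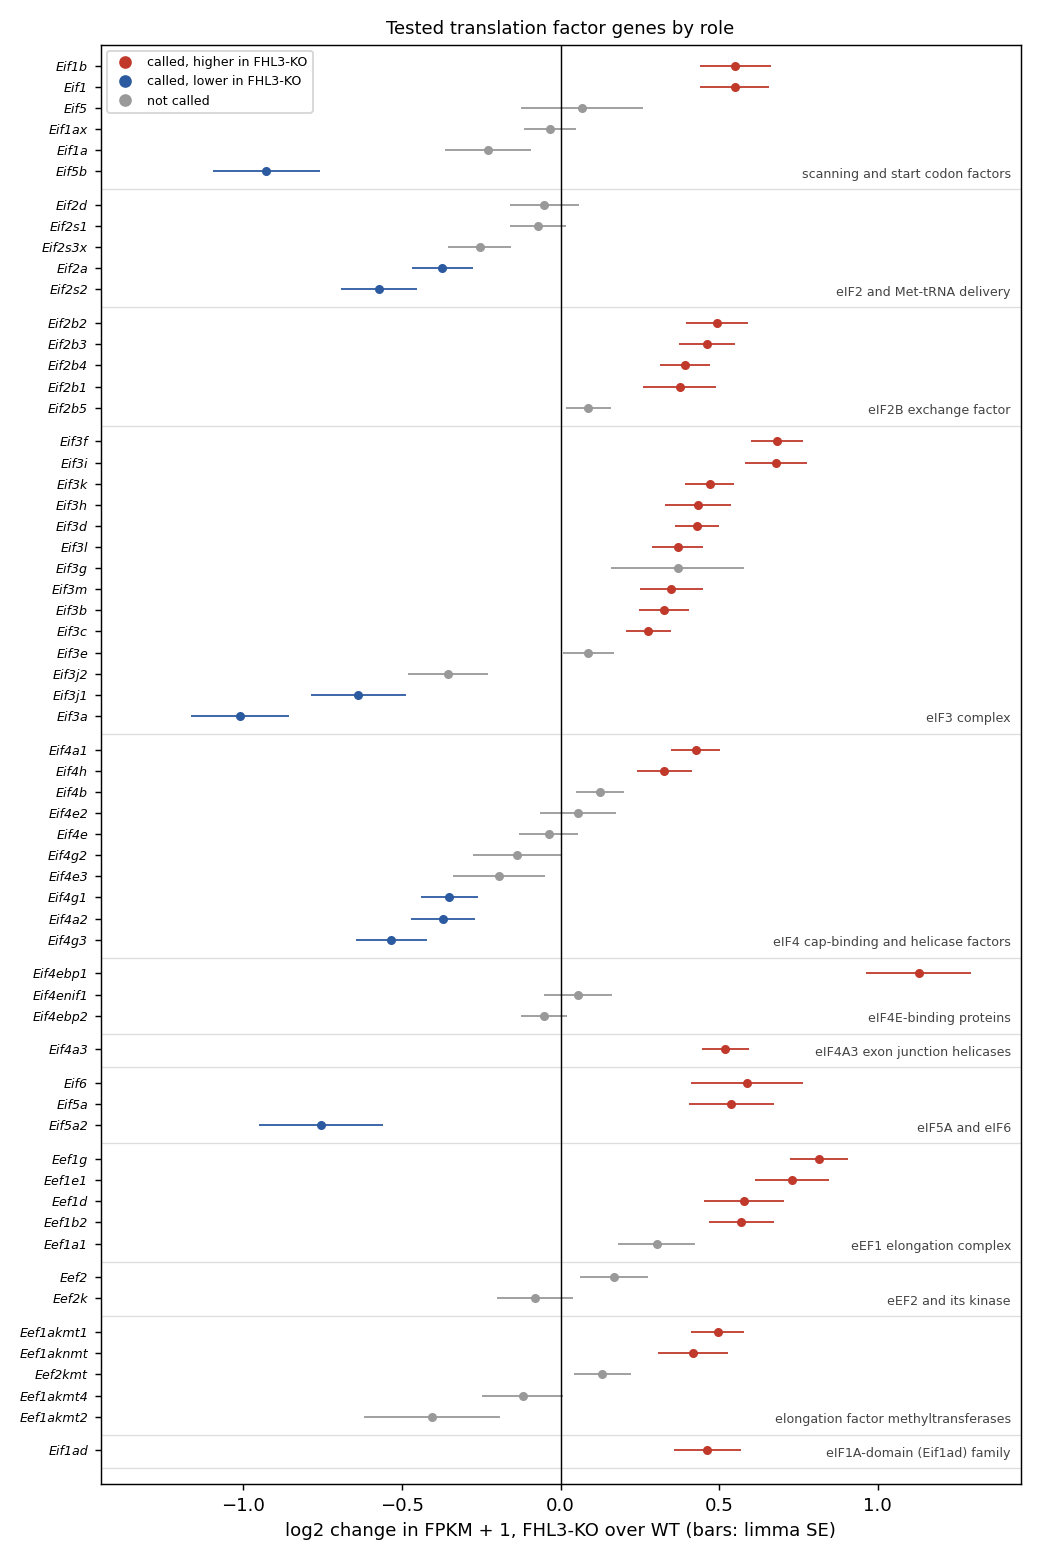
Log2 change (libraries labelled FHL3-KO over WT, on the log2(FPKM + 1) scale) of each tested member by role, with bars for the standard error and colours for the limma call. The eEF1, eIF2B and most eIF3 members lie right of 0, while Eif3a and Eif5b lie near -1 and Eif4ebp1 lies past 1.

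The 25 members not tested were each under 1 FPKM in every library, and 9 of them were listed at 0 throughout. They were 17 of the 18 Eif1ad genes, Eef1a2, Eif2s3y, Eif4e1b, Eif4ebp3, Eif4a3l1, Eif4a3l2, Eef1akmt3 and Eif2c5. Eif1ad itself, a nuclear protein gene with an eIF1A-like domain, was 14.2, 11.3 and 13.4 FPKM in libraries labelled FHL3-KO, against 8.56, 9.21 and 9.55 FPKM in WT libraries (log2 change 0.46, SE 0.11, limma adjusted p = 0.0116). The groups did not overlap for Eif1ad. Its exons share 428 bases with Banf1 on the opposite strand, which averaged 89.3 FPKM, and with the strand setting unknown reads of the pair cannot be told apart.

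Together the members carried slightly more of the deposited signal in the libraries labelled FHL3-KO. As a share of each library's FPKM sum, they made up 2.12, 2.14 and 2.02% in the libraries labelled FHL3-KO, against 1.87, 1.86 and 1.81% in the WT libraries. The groups did not overlap (two-sided exact permutation p = 0.1, the smallest that 3 against 3 allows). Eef1a1, which encodes the elongation factor eEF1A1, was 34.5, 35.6 and 33.4% in the libraries labelled FHL3-KO, against 34.6, 33.9 and 34.0% in the WT libraries when given as a share of the member sum. That share overlapped between the groups (two-sided exact permutation p = 0.7).

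Eef1a1 was the most abundant member per length in every library. Eef1a1 (ENSMUSG00000037742, mm10 chr9:78478449-78489151, minus strand) was 3543, 3640.0 and 3338 FPKM in libraries labelled FHL3-KO, against 2752, 2848 and 2923 FPKM in WT libraries, a mean of 3507 ± 154 FPKM under the FHL3-KO label and 2841 ± 85.5 FPKM in WT (SD, n = 3 each). Every value under the FHL3-KO label lay above every WT value, by a mean factor of 1.23, but the change missed the threshold (log2 change 0.30, SE 0.12, limma adjusted p = 0.0819), and it passed after quantile normalization and without the mean-variance trend (adjusted p 0.0263 to 0.458 over the alternatives). Eef1a2 (ENSMUSG00000016349, mm10 chr2:181147653-181157014, minus strand), the paralog of adult muscle, heart and neurons, was listed at 0, 0 and 0 FPKM in libraries labelled FHL3-KO, against 0.311, 0.302 and 0.223 FPKM in WT libraries. No Eef1a2 value reached 1 FPKM, so the gene was not tested as filtered. With no filter on low values it was a lower call (log2 change -0.35, limma adjusted p = 0.00352), a fit against libraries listed at 0 that gives no fold. The ratio of Eef1a1 to Eef1a2 per library was 8857, 9436 and 13135 in WT replicates 1 to 3 and has no value in the libraries labelled FHL3-KO, where Eef1a2 is listed at 0 in all 3. At day 4 both groups thus held almost only the Eef1a1 mRNA of this pair, while the muscle markers above summed to 5687 FPKM or more.

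The other 4 tested eEF1 genes, among them the exchange factors that recharge eEF1A, all rose. Over all genes tested 19.7% were higher, and 26.9% lay above WT without overlap. Eef1g, the eEF1B gamma subunit, was 211, 205 and 188 FPKM in libraries labelled FHL3-KO, against 106, 113 and 124 FPKM in WT libraries (log2 change 0.82, SE 0.091, limma adjusted p = 0.000696). Eef1b2, the catalytic beta subunit, was 228, 216 and 234 FPKM in the FHL3-KO-labelled libraries and 133, 157 and 168 FPKM in WT (log2 change 0.57, SE 0.10, limma adjusted p = 0.00466). Eef1d, another exchange subunit, was 144, 110.3 and 130.2 FPKM under the FHL3-KO label, against 75.6, 95.6 and 84.9 FPKM under the WT label (log2 change 0.58, SE 0.13, limma adjusted p = 0.00980). All 3 genes lay higher in every library labelled FHL3-KO than in any WT library. Eef1e1, which sits in the multi-tRNA-synthetase complex, was 17.1, 18.4 and 16.9 FPKM in libraries labelled FHL3-KO, against 9.36, 9.15 and 12.1 FPKM in WT libraries (log2 change 0.73, SE 0.12, limma adjusted p = 0.00296). Eef1e1 did not overlap between groups either. The means of the 4 genes stood 1.77, 1.48, 1.502 and 1.71 times as high as in WT in the order given, and all 4 kept their call in every alternative fit. Eef1a1 itself, without a call, stood 1.23 times as high.

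eEF2 and its kinase showed no call. Eef2, the translocation factor, was 1515, 1513 and 1621 FPKM in libraries labelled FHL3-KO, against 1279, 1407 and 1456 FPKM in WT libraries (log2 change 0.17, SE 0.11, limma adjusted p = 0.248), with every FHL3-KO-labelled value above every WT value. Eef2k, the calcium-dependent kinase that switches eEF2 off, was 3.55, 3.58 and 4.25 FPKM in the FHL3-KO-labelled libraries and 4.12, 3.55 and 4.54 FPKM in WT (log2 change -0.080, SE 0.12, limma adjusted p = 0.617), and its groups overlapped. The ratio of Eef2 to Eef2k per library was 427, 423 and 381 in the libraries labelled FHL3-KO, against 310.2, 396 and 321 in the WT libraries (difference in log2 ratio 0.27, two-sided exact permutation p = 0.2, adjusted p = 0.25 over 5 ratios). The groups overlapped, and after quantile normalization the difference was -0.030.

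Of 6 methyltransferase genes that modify eEF1A or eEF2, 5 were tested and 2 rose (40%), where 19.7% of all genes tested were higher. Eef1akmt1, a lysine methyltransferase of eEF1A and the most abundant of the group, was 40.8, 38.1 and 36.4 FPKM in libraries labelled FHL3-KO, against 25.8, 28.9 and 26.3 FPKM in WT libraries (log2 change 0.49, limma adjusted p = 0.00348), without overlap. Eef1aknmt rose as well (log2 change 0.42, limma adjusted p = 0.0205), and the call of Eef1aknmt ended with all libraries scaled to the same sum and without FHL3-KO replicate 3 or WT replicate 1 or 2 (adjusted p 0.00852 to 0.0671 over the alternatives), which leaves 1 higher call of the group without any of those libraries. Eef1akmt2, Eef1akmt4 and Eef2kmt had no call, with log2 changes of -0.41, -0.12 and 0.13, and without FHL3-KO replicate 2 Eef1akmt2 became 1 lower call.

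**Figure D2:**
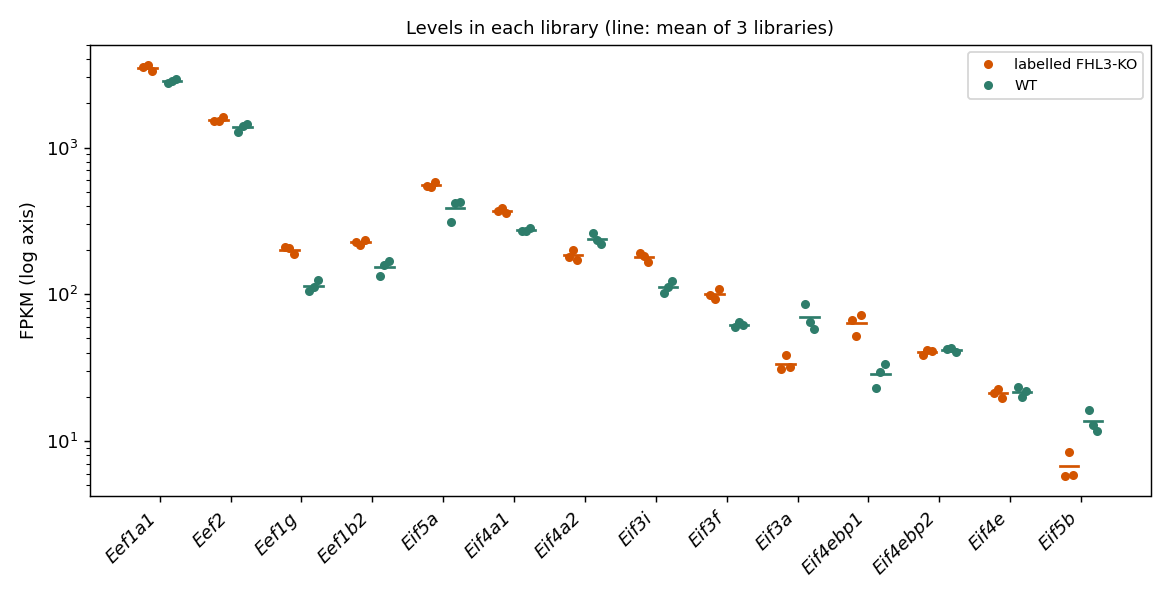
FPKM of selected members in each library on a log axis, with the libraries labelled FHL3-KO left of the WT libraries and a bar at each group mean. The points of Eif3a and Eif5b lie lower under the FHL3-KO label and those of Eif4ebp1, Eef1g and Eif3f lie higher, without overlap.

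Among the subunits of eIF3, most genes rose and that of the largest subunit fell. Of 14 genes of the complex 9 were higher (64.3%), 2 were lower (14.3%) and 3 had no call, with a median log2 change of 0.36. Over all genes tested 19.7% were higher and 21.2% lower. Summed FPKM of the 14 was 1568, 1544.0 and 1526 in the libraries labelled FHL3-KO, against 1166, 1217 and 1264 in the WT libraries (two-sided exact permutation p = 0.1, the smallest possible). After quantile normalization 4 of the 14 were higher, and without WT replicate 2 only 1 was lower.

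Eif3a, the scaffold subunit with the longest polypeptide of the complex, had the most negative log2 change of all members tested. Eif3a (ENSMUSG00000024991, mm10 chr19:60761117-60790658, minus strand) was 31.0, 38.3 and 31.8 FPKM in libraries labelled FHL3-KO, against 86.0, 65.1 and 57.6 FPKM in WT libraries, a mean of 33.7 ± 4.01 FPKM under the FHL3-KO label and 69.6 ± 14.7 FPKM in WT (SD, n = 3 each), which is 0.484 times the WT mean (log2 change -1.01, SE 0.16, limma adjusted p = 0.00251). The highest value under the FHL3-KO label was well under the lowest WT value, and WT replicate 1 was the highest of all. Eif3a kept its call in every alternative fit. Of the summed eIF3 FPKM, Eif3a made up 1.98, 2.48 and 2.08% in the libraries labelled FHL3-KO, against 7.38, 5.35 and 4.56% in the WT libraries (two-sided exact permutation p = 0.1, the smallest possible). This share uses the same values as the call of Eif3a and is no separate support.

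Eif3f, a subunit with an MPN domain, was 98.7, 93.4 and 109 FPKM in libraries labelled FHL3-KO, against 60.1, 64.4 and 61.6 FPKM in WT libraries (log2 change 0.68, SE 0.082, limma adjusted p = 0.000959). Eif3i, a WD-repeat subunit, was 191, 183 and 165 FPKM in the FHL3-KO-labelled libraries and 102, 111 and 122 FPKM in WT (log2 change 0.68, SE 0.10, limma adjusted p = 0.00195). Neither gene overlapped between groups, and means stood 1.62 and 1.61 times as high as in WT. Eif3h, the most abundant eIF3 gene per length, was 283, 276 and 288 FPKM under the FHL3-KO label, against 185, 208 and 236 FPKM under the WT label (log2 change 0.43, SE 0.10, limma adjusted p = 0.0138). It also did not overlap, but the call of Eif3h ended after quantile normalization and without WT replicate 2 (adjusted p 0.00878 to 0.0559 over the alternatives). The other subunits called higher were Eif3k, Eif3d, Eif3l, Eif3m, Eif3b and Eif3c, with log2 changes of 0.47, 0.43, 0.37, 0.35, 0.33 and 0.28 in that order and limma adjusted p-values of 0.00316 to 0.0271. Eif3k and Eif3d kept their call in every alternative fit. Other calls were less stable: the call of Eif3l ended after quantile normalization (adjusted p 0.00929 to 0.0588 over the alternatives), the call of Eif3b ended after quantile normalization, after the length and GC correction and without FHL3-KO replicate 1 (adjusted p 0.0137 to 0.101 over the alternatives). Further, the call of Eif3c ended after quantile normalization, with all libraries scaled to the same sum, after the length and GC correction and without FHL3-KO replicate 1 or WT replicate 2 or 3 (adjusted p 0.0153 to 0.260 over the alternatives). In addition, the call of Eif3m ended with no filter on low values, after quantile normalization, with all libraries scaled to the same sum, after the length correction and without FHL3-KO replicate 1 or 2 or WT replicate 1, 2 or 3 (adjusted p 0.000384 to 0.204 over the alternatives). Eif3e and Eif3g had no call at log2 changes of 0.087 and 0.37, and Eif3g passed without FHL3-KO replicate 2, its lowest library under that label.

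The loosely bound eIF3 subunit eIF3j has a pair of nearly identical genes in the mouse. Eif3j1 was 5.00, 6.49 and 4.36 FPKM in libraries labelled FHL3-KO, against 9.69, 8.91 and 7.55 FPKM in WT libraries (log2 change -0.64, SE 0.15, limma adjusted p = 0.0131). Eif3j2 was 9.53, 11.7 and 8.36 FPKM in the FHL3-KO-labelled libraries and 13.2, 13.4 and 11.8 FPKM in WT (log2 change -0.35, SE 0.13, limma adjusted p = 0.0568). Both were lower in all 3 libraries labelled FHL3-KO than in any WT library, but only Eif3j1 passed the threshold, and its call ended without WT replicate 2 (adjusted p 0.00487 to 0.0512 over the alternatives). Eif3j2 passed with all libraries scaled to the same sum, after median-of-ratios scaling, after the length correction, with the replicate block and without FHL3-KO replicate 2 (adjusted p 0.0135 to 0.657 over the alternatives). The ratio of Eif3j1 to Eif3j2 was 0.524, 0.557 and 0.522 in the libraries labelled FHL3-KO, against 0.733, 0.667 and 0.641 in the WT libraries (difference in log2 ratio -0.35, two-sided exact permutation p = 0.1, adjusted p = 0.167), without overlap. The transcripts are 99.4% identical over 2379 bases, and exons of Eif3j1 share 1107 bases with Spg11 on the opposite strand, so how reads were divided between these genes is uncertain.

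The largest rise was that of Eif4ebp1, which encodes 4E-BP1, the repressor that binds the cap-binding protein eIF4E until mTORC1 phosphorylates it. Eif4ebp1 (ENSMUSG00000031490, mm10 chr8:27260329-27276674, plus strand) was 67.0, 52.2 and 71.8 FPKM in libraries labelled FHL3-KO, against 22.8, 29.6 and 33.6 FPKM in WT libraries, a mean of 63.7 ± 10.2 FPKM under the FHL3-KO label and 28.7 ± 5.42 FPKM in WT (SD, n = 3 each). That is 2.22 times the WT mean (log2 change 1.13, SE 0.17, limma adjusted p = 0.00214), with no overlap and a call in every alternative fit. Eif4ebp2, its relative, was 38.8, 41.7 and 40.7 FPKM in the FHL3-KO-labelled libraries and 42.2, 43.3 and 40.3 FPKM in WT (log2 change -0.053, SE 0.072, limma adjusted p = 0.578), and its groups overlapped. Eif4ebp3 was 0, 0.285 and 0 FPKM under the FHL3-KO label, against 0.286, 0.0514 and 0.195 FPKM under the WT label and was not tested. Of the summed FPKM of the 3 repressor genes, Eif4ebp1 made up 63.3, 55.4 and 63.8% in the libraries labelled FHL3-KO, against 34.9, 40.5 and 45.3% in the WT libraries (two-sided exact permutation p = 0.1, the smallest possible). This share uses the same values as the call of Eif4ebp1 and is no separate support. Eif4enif1, the eIF4E transporter, had no call (log2 change 0.055, limma adjusted p = 0.705).

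The cap-binding protein gene Eif4e had no call. Eif4e was 21.2, 22.5 and 19.5 FPKM in libraries labelled FHL3-KO, against 23.4, 19.9 and 21.7 FPKM in WT libraries (log2 change -0.038, SE 0.093, limma adjusted p = 0.766), and the groups overlapped. The ratio of Eif4e to the summed 3 Eif4ebp genes was 0.200, 0.239 and 0.174 in the libraries labelled FHL3-KO, against 0.358, 0.273 and 0.294 in the WT libraries (difference in log2 ratio -0.60, two-sided exact permutation p = 0.1, adjusted p = 0.167). All 3 ratios under the FHL3-KO label were below every WT ratio, and the difference was -0.12 after the length and GC correction described below.

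The helicase paralogs eIF4A1 and eIF4A2, which unwind mRNA leaders as part of eIF4F, moved in opposite directions. Eif4a1 was 367, 384 and 358 FPKM in libraries labelled FHL3-KO, against 269.9, 271 and 285 FPKM in WT libraries (log2 change 0.43, SE 0.079, limma adjusted p = 0.00507). Eif4a2 was 180.1, 200.1 and 171 FPKM in the FHL3-KO-labelled libraries and 260.5, 234 and 219 FPKM in WT (log2 change -0.37, SE 0.10, limma adjusted p = 0.0217). The groups overlapped for neither gene. The ratio of Eif4a1 to Eif4a2 was 2.04, 1.92 and 2.09 in the libraries labelled FHL3-KO, against 1.04, 1.16 and 1.30 in the WT libraries (difference in log2 ratio 0.80, two-sided exact permutation p = 0.1, adjusted p = 0.167), near 1 in WT replicate 1 and about 2 in every library labelled FHL3-KO. Over the alternatives the difference in log2 ratio was 0.48 to 0.88. However, the call of Eif4a1 ended after quantile normalization (adjusted p 0.00218 to 0.234 over the alternatives). Also, the call of Eif4a2 ended with no filter on low values, after the length and GC correction and without FHL3-KO replicate 1 or 3 or WT replicate 1 or 2 (adjusted p 0.0157 to 0.861 over the alternatives). A processed copy, Eif4a-ps4, is 99.9% identical to Eif4a1 over 1218 bases and was listed at 74.9, 80.0 and 115 FPKM in libraries labelled FHL3-KO, against 92.0, 99.4 and 100.1 FPKM in the WT libraries, so the level of Eif4a1 is uncertain by reads that either could have received.

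The scaffold genes that join eIF4E to eIF4A were lower. Eif4g1, the main scaffold, was 63.8, 65.5 and 74.1 FPKM in libraries labelled FHL3-KO, against 93.6, 85.1 and 81.4 FPKM in WT libraries (log2 change -0.35, SE 0.091, limma adjusted p = 0.0193). Eif4g3 was 8.74, 10.6 and 8.12 FPKM in the FHL3-KO-labelled libraries and 14.5, 13.2 and 13.2 FPKM in WT (log2 change -0.53, SE 0.11, limma adjusted p = 0.00869). Neither overlapped between groups, and Eif4g3 kept its call in every alternative fit, whereas the call of Eif4g1 ended after the length correction and without FHL3-KO replicate 1 or WT replicate 1 or 2 (adjusted p 0.00600 to 0.119 over the alternatives). Their ratio was 7.30, 6.17 and 9.13 in the libraries labelled FHL3-KO, against 6.43, 6.46 and 6.18 in the WT libraries and overlapped (difference in log2 ratio 0.23, two-sided exact permutation p = 0.4, adjusted p = 0.4). Eif4h, a helper of the helicase, rose (log2 change 0.33, limma adjusted p = 0.0208), but the call of Eif4h ended after quantile normalization and without FHL3-KO replicate 1 or 3 or WT replicate 2 (adjusted p 0.0172 to 0.138 over the alternatives). Eif4b, Eif4e2, Eif4e3 and Eif4g2 had no call, at log2 changes of 0.12, 0.056, -0.19 and -0.14. Of the 10 tested cap-binding and helicase genes 2 rose (20%) and 3 fell (30%), where 19.7% of all genes were higher and 21.2% lower. Of these genes 1 rose without FHL3-KO replicate 1 or 3 or WT replicate 2, and 1 fell without FHL3-KO replicate 1 or WT replicate 1 or 2. Eif4a3, a related helicase of the exon junction complex and not of eIF4F, was 88.6, 88.9 and 91.6 FPKM in libraries labelled FHL3-KO, against 58.4, 63.6 and 65.1 FPKM in WT libraries (log2 change 0.52, SE 0.074, limma adjusted p = 0.00189), with no overlap.

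**Figure D3:**
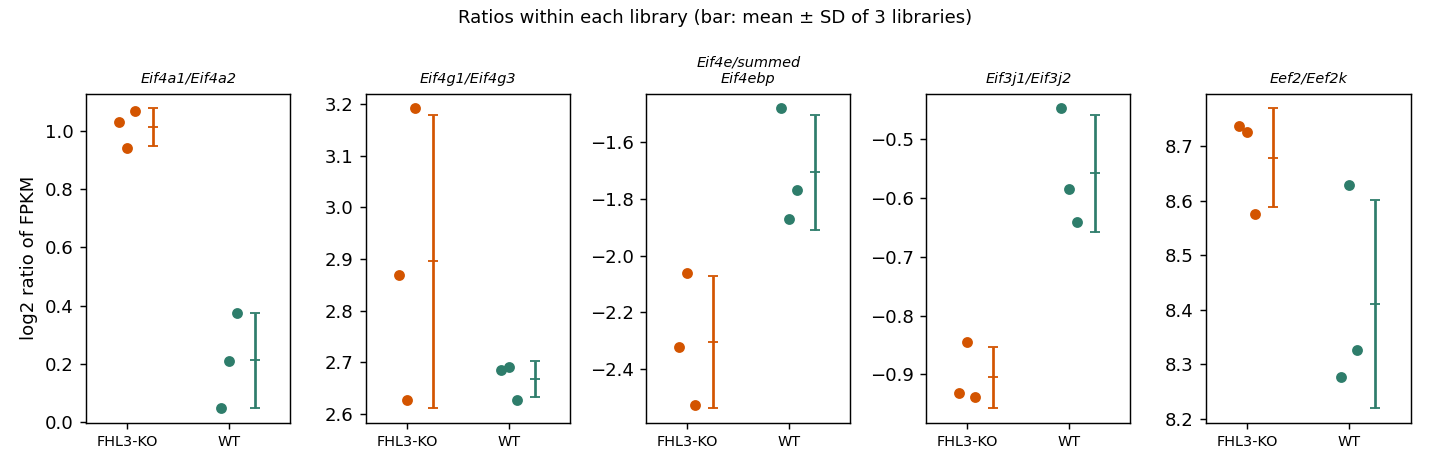
Log2 ratios of paralogs and partners per library, with the libraries labelled FHL3-KO left of WT, each panel with its own axis and a bar for the mean ± SD of 3 libraries. Log2 ratios of Eif4a1 to Eif4a2 are 0.94 to 1.07 under the FHL3-KO label and 0.051 to 0.38 in WT, while those of Eif4g1 to Eif4g3 and Eef2 to Eef2k overlap.

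The difference between eIF2 and its exchange factor was not tested. None of the 5 tested genes of eIF2 and initiator tRNA delivery rose and 2 fell (40%), while 4 of the 5 eIF2B genes rose (80%) and none fell. Over all genes tested 19.7% were higher and 21.2% lower. After the length and GC correction described below, 1 gene of the eIF2 group was higher and none lower, and 2 eIF2B genes were higher and none lower. Eif2s2, the beta subunit of eIF2, was 42.1, 45.8 and 34.0 FPKM in libraries labelled FHL3-KO, against 65.3, 58.4 and 58.0 FPKM in WT libraries (log2 change -0.57, SE 0.12, limma adjusted p = 0.00817), with no overlap. Eif2s3x, the gamma subunit and the most abundant of the group, was 57.6, 69.4 and 57.5 FPKM in the FHL3-KO-labelled libraries and 77.2, 74.4 and 68.6 FPKM in WT (log2 change -0.26, SE 0.10, limma adjusted p = 0.0731), with 1 library labelled FHL3-KO inside the WT range. Eif2a, an alternative initiator tRNA carrier, fell (log2 change -0.37, limma adjusted p = 0.0184), whereas Eif2s1, the alpha subunit that stress kinases phosphorylate, and Eif2d had log2 changes of -0.072 and -0.052 without a call. The Eif2s2 call ended after the length and GC correction (0.00538 to 0.231 over the alternatives), and the call of Eif2a ended after the length and GC correction and without FHL3-KO replicate 1 or 3 or WT replicate 1 or 2 (adjusted p 0.00725 to 0.613 over the alternatives), so that 1 call was left without any of those libraries. Eif2s3x passed after quantile normalization, with all libraries scaled to the same sum, after the length correction and without FHL3-KO replicate 2.

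Eif2b2, the beta subunit and the most abundant gene of eIF2B, was 67.8, 67.4 and 70.7 FPKM in libraries labelled FHL3-KO, against 42.6, 49.8 and 53.6 FPKM in WT libraries (log2 change 0.49, SE 0.10, limma adjusted p = 0.00645). The groups did not overlap. Eif2b3, Eif2b4 and Eif2b1 were also higher, at log2 changes of 0.46, 0.39 and 0.38 with limma adjusted p-values of 0.00591, 0.00727 and 0.0343. Exons of Eif2b4 share 204 bases with Snx17 on the opposite strand, which averaged 55.2 FPKM. Eif2b5, the catalytic epsilon subunit, had no call (log2 change 0.087, limma adjusted p = 0.352). Eif2b2 and Eif2b3 kept their call in every alternative fit, but the call of Eif2b4 ended after the length and GC correction (adjusted p 0.00655 to 0.0523 over the alternatives). In the same group the call of Eif2b1 ended with no filter on low values, after quantile normalization, with all libraries scaled to the same sum, after the length correction, after the length and GC correction and without FHL3-KO replicate 1 or 2 or WT replicate 2 or 3 (adjusted p 0.0185 to 0.155 over the alternatives).

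Of the 6 tested factors of scanning and subunit joining, 2 were higher (33.3%) and 1 was lower (16.7%). Over all genes tested 19.7% were higher and 21.2% lower. Eif1, which guards start codon choice and was the most abundant of the 6, was 502, 412 and 399.7 FPKM in libraries labelled FHL3-KO, against 283, 303 and 306 FPKM in WT libraries (log2 change 0.55, SE 0.11, limma adjusted p = 0.00669). Eif1b, its paralog, was 29.6, 27.0 and 32.7 FPKM in the FHL3-KO-labelled libraries and 17.4, 20.9 and 21.7 FPKM in WT (log2 change 0.55, SE 0.11, limma adjusted p = 0.00743). Both were higher in every library labelled FHL3-KO, though the Eif1 call ended after quantile normalization (0.00640 to 0.101 over the alternatives). Eif5b (ENSMUSG00000026083, mm10 chr1:37998010-38055579, plus strand), the GTPase of subunit joining, was 5.78, 8.46 and 5.88 FPKM in libraries labelled FHL3-KO, against 16.2, 12.8 and 11.7 FPKM in WT libraries (log2 change -0.93, SE 0.17, limma adjusted p = 0.00469). Its mean was 0.493 times that of WT, the groups did not overlap and the call held in every alternative fit. Exons of Eif5b share 1643 bases with Rev1 on the opposite strand, and the strand setting of the counting is not given. Eif5, Eif1a and Eif1ax had no call, at log2 changes of 0.068, -0.23 and -0.033, and Eif1a became a lower call without FHL3-KO replicate 2, for 2 lower calls in the group.

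Eif5a and Eif5a2, the paralogs of the hypusine-bearing factor that relieves stalled ribosomes, differed in direction. Eif5a was 547, 539 and 584 FPKM in libraries labelled FHL3-KO, against 313, 422 and 425 FPKM in WT libraries (log2 change 0.54, SE 0.13, limma adjusted p = 0.0162). Eif5a2 was 1.18, 1.62 and 0.727 FPKM in the FHL3-KO-labelled libraries and 3.16, 2.84 and 1.98 FPKM in WT (log2 change -0.76, SE 0.20, limma adjusted p = 0.0185). Eif6, which keeps ribosomal subunits apart, was 105, 76.5 and 101 FPKM under the FHL3-KO label, against 48.9, 64.5 and 74.4 FPKM under the WT label (log2 change 0.59, SE 0.18, limma adjusted p = 0.0324). The Eif5a2 mean was 0.443 times that of WT. None of the 3 genes overlapped between groups. Over all genes tested 40.8% were called, 26.9% lay above WT without overlap and 26.9% below it. The calls of these 3 genes ended in more alternatives than those of the other members with an absolute log2 change of at least 0.5. The call of Eif5a ended with no filter on low values and without FHL3-KO replicate 1 (adjusted p 0.0155 to 0.0630 over the alternatives). Likewise the call of Eif5a2 ended with no filter on low values, after the length and GC correction and without FHL3-KO replicate 1 or 3 or WT replicate 1 or 2 (adjusted p 0.0103 to 0.0782 over the alternatives). Lastly the call of Eif6 ended with no filter on low values, after quantile normalization, after the length and GC correction and without FHL3-KO replicate 1 or 3 or WT replicate 1 or 2 (adjusted p 0.0140 to 0.113 over the alternatives).

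The direction of change went with exon length, taken here over the merged exons of all annotated transcripts of a gene. Over the 60 tested members the correlation across genes of log2 change with log2 exon length was -0.52 (Pearson) and -0.50 (Spearman), against -0.13 and -0.22 over 12493 genes with a length. With GC content it was 0.49 (Pearson), against 0.34 over all genes. The genes share the same 6 libraries and are not independent. Of the 20 members with the shortest exon models (947 to 2600 bases) 13 were higher and none lower, of the middle 20 there were 11 higher and 2 lower, and of the longest 20 (5551 to 11063 bases) 4 were higher and 7 lower. Over all genes tested 19.7% were higher and 21.2% lower. Calls of all genes in the same ranges of length were not counted. The median exon length was 2700 bases for higher, 4468 bases for uncalled and 6755 bases for lower members. In single libraries the Spearman correlation of a member's deviation from its mean with length was -0.57, -0.34 and -0.46 under the FHL3-KO label, against 0.57, 0.41 and 0.36 in WT. Over all genes it was -0.32, 0.066 and -0.30 under the FHL3-KO label, against 0.37, 0.18 and -0.062 in WT, so the libraries differ in how signal depends on length. The sources used here do not give the RNA quality of each library.

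With a correction of each library for length and GC content fitted over all genes, 29 members were higher and 5 lower, where 22.5% of all genes were higher and 20.5% lower. The lower calls that remained were those of Eif3a (log2 change -0.71, limma adjusted p = 0.000810), Eif5b (-0.57, limma adjusted p = 0.00246), Eif4g3 (-0.46, limma adjusted p = 0.00495), Eif4g1 (-0.37, limma adjusted p = 0.00600) and Eif3j1 (-0.31, limma adjusted p = 0.0254). The calls of Eif2s2 (-0.12, limma adjusted p = 0.231), Eif2a (0.043, limma adjusted p = 0.613), Eif4a2 (0.015, limma adjusted p = 0.861) and Eif5a2 (-0.36, limma adjusted p = 0.0614) ended. Of the 28 higher calls 23 remained, among them Eif4ebp1 (1.06, limma adjusted p = 0.00185), Eef1g (0.68, limma adjusted p = 0.00104) and Eif3f (0.57, limma adjusted p = 0.000999). Members without a call as deposited became higher calls in 6 cases: Eif3e (0.55, limma adjusted p = 0.00288), Eif5 (0.46, limma adjusted p = 0.0160), Eif4e (0.36, limma adjusted p = 0.00891), Eif1ax (0.36, limma adjusted p = 0.00849), Eif2s1 (0.28, limma adjusted p = 0.0392) and Eif4g2 (0.26, limma adjusted p = 0.0202). After this correction a relation with length was left among the members. The Spearman correlation of log2 change with exon length was -0.26 over the members, against -0.017 over all genes. All 5 lower calls that remained were among the 20 members with the longest exon models, where 8 were higher. What the length relation comes from was not tested.

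**Figure D4:**
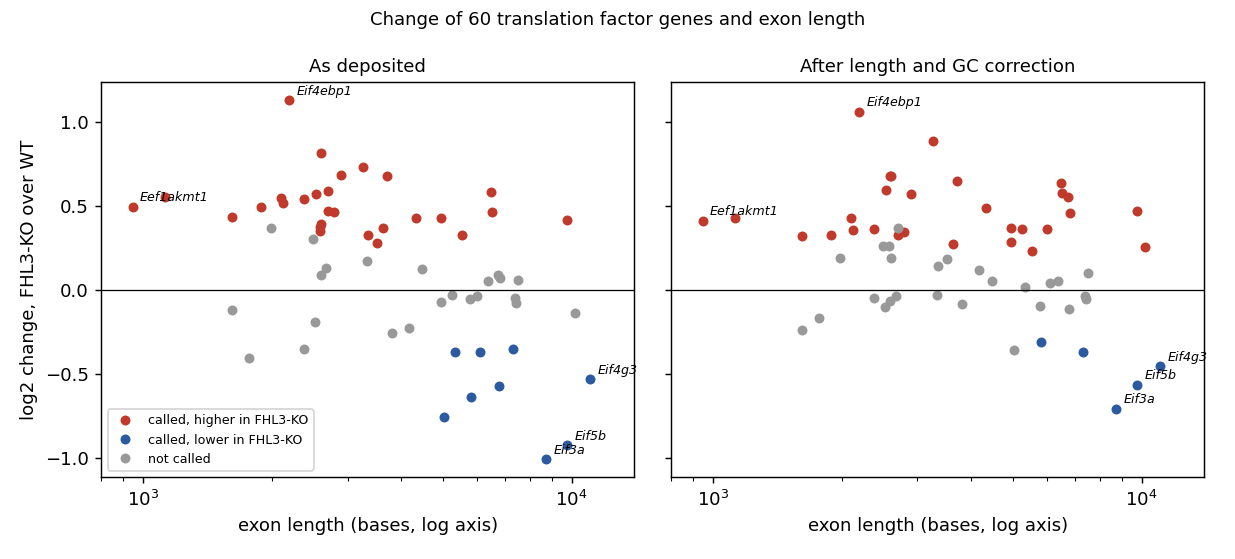
Log2 change of each tested member (libraries labelled FHL3-KO over WT) against exon length on a log axis, as deposited and after the length and GC correction. As deposited, the lower calls lie at 5027 bases or more, and after the correction Eif3a and Eif5b remain below 0.

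Lists of genes that work beside these factors were counted by the same fit. Of 81 tested genes in 6 lists 24 were higher (29.6%) and 13 lower (16%), where 19.7% of all genes were higher and 21.2% lower, and without WT replicate 2 the counts were 14 and 8. Cytosolic tRNA synthetases and their scaffold proteins gave 12 higher and 2 lower of 21 tested, with a median log2 change of 0.36, and 7 and 1 without WT replicate 2; the lower count was also 1 without FHL3-KO replicate 1 or WT replicate 3. Kars, the lysyl-tRNA synthetase, was 83.8, 87.4 and 90.1 FPKM in libraries labelled FHL3-KO, against 49.4, 50.2 and 48.0 FPKM in WT libraries (log2 change 0.81, limma adjusted p = 0.000246). Eprs, the glutamyl-prolyl synthetase, was 15.8, 17.7 and 15.6 FPKM in the FHL3-KO-labelled libraries and 38.8, 34.2 and 31.7 FPKM in WT (log2 change -1.05, limma adjusted p = 0.000362). Vars, the valyl-tRNA synthetase, and Aimp2, a scaffold of the complex that also holds Eef1e1, rose at log2 changes of 0.65 and 0.68 (limma adjusted p = 0.000998 and 0.00112). None of these 4 genes, those with the smallest p of the list, overlapped between groups. Of all genes tested 26.9% lay above WT and 26.9% below it without overlap.

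The eIF2 kinases and the phosphatase subunits that reverse them gave 3 higher (30%) and 3 lower (30%) calls of 10 tested. Over all genes tested 19.7% were higher and 21.2% lower. Eif2ak2, the double-stranded RNA kinase PKR, was 1.35, 2.15 and 1.38 FPKM in libraries labelled FHL3-KO, against 5.62, 4.46 and 3.84 FPKM in WT libraries (log2 change -1.10, limma adjusted p = 0.00251). Ppp1r15a, the stress-induced subunit GADD34 that dephosphorylates eIF2, was 21.0, 19.7 and 25.6 FPKM in the FHL3-KO-labelled libraries and 10.2, 11.7 and 12.1 FPKM in WT (log2 change 0.90, limma adjusted p = 0.00134). Ppp1r15b, its constitutive counterpart, rose as well (log2 change 0.57, limma adjusted p = 0.00286), and Nck1, an adaptor that favours dephosphorylated eIF2, fell (log2 change -0.78, limma adjusted p = 0.00276). These 4 genes, those with the smallest p of the list, did not overlap between groups. Of all genes tested 26.9% lay above WT and 26.9% below it without overlap.

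Cap-binding partners and mTORC1 genes gave 4 higher (20%) and 3 lower (15%) calls of 20 tested, where 19.7% of all genes were higher and 21.2% lower. There were 2 higher calls without WT replicate 1, 2 or 3. Paip2, a repressor of poly(A)-binding protein, was 35.6, 39.4 and 33.9 FPKM in libraries labelled FHL3-KO, against 66.3, 61.6 and 62.2 FPKM in WT libraries (log2 change -0.79, limma adjusted p = 0.000530). Paip1, its activating counterpart, rose (log2 change 0.43, limma adjusted p = 0.00558), as did the cytoplasmic poly(A)-binding protein gene Pabpc4 (log2 change 0.39, limma adjusted p = 0.00599). Gigyf2, a partner of the eIF4E homolog 4EHP, fell (log2 change -0.68, limma adjusted p = 0.00451). The groups did not overlap for these 4 genes, those with the smallest p of the list. Of all genes tested 26.9% lay above WT and 26.9% below it without overlap.

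Release, recycling and rescue factors gave 1 higher (8.33%) and 3 lower (25%) calls of 12 tested. Over all genes tested 19.7% were higher and 21.2% lower. Gspt2, a release factor GTPase, rose (log2 change 0.73, limma adjusted p = 0.00853) and Abce1, the ATPase that splits ribosomes, fell (log2 change -0.73, limma adjusted p = 0.0112). Denr and Nemf fell too (log2 change -0.29, limma adjusted p = 0.0379, and log2 change -0.50, limma adjusted p = 0.0281), but the call of Denr ended with no filter on low values, after the length correction, with the replicate block, without the mean-variance trend and without FHL3-KO replicate 1, 2 or 3 or WT replicate 1 or 2 (adjusted p 0.0229 to 0.148 over the alternatives). Similarly the call of Nemf ended with no filter on low values, after the length correction, after the length and GC correction and without FHL3-KO replicate 1 or 3 or WT replicate 1 or 2 (adjusted p 0.0137 to 0.554 over the alternatives). This left 1 lower call without FHL3-KO replicate 1 or 3 or WT replicate 1 or 2. Mitochondrial factors gave 2 higher (22.2%) and 2 lower (22.2%) calls of 9 tested. Gfm2 (log2 change 0.65, limma adjusted p = 0.0139) and Mrrf (log2 change 0.38, limma adjusted p = 0.0193) were higher. Mtif2 (log2 change -0.66, limma adjusted p = 0.00759) and Mtrf1l (log2 change -0.55, limma adjusted p = 0.0127) were lower. Of these, the call of Mrrf ended with all libraries scaled to the same sum and without FHL3-KO replicate 1 or 3 or WT replicate 2 or 3 (adjusted p 0.00645 to 0.120 over the alternatives). Beside it the call of Mtrf1l ended after quantile normalization and without WT replicate 2 (adjusted p 0.00632 to 0.0568 over the alternatives), and the call of Gfm2 ended with no filter on low values (adjusted p 0.000498 to 0.0541 over the alternatives). Of the 9 enzymes that make diphthamide on eEF2 or hypusine on eIF5A, 2 were higher (22.2%) and none lower. These were Dhps, deoxyhypusine synthase (log2 change 0.60, limma adjusted p = 0.00580), and Dnajc24 (log2 change 0.43, limma adjusted p = 0.0183). In this group the call of Dnajc24 ended with all libraries scaled to the same sum, after the length correction and without FHL3-KO replicate 3 or WT replicate 2 or 3 (adjusted p 0.00706 to 0.0933 over the alternatives).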

How the data were processed

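RNA-seq was measured in 6 C2C12 libraries at day 4 of differentiation. The submitters' processing notes list DESeq2 1.28.1, featureCounts 2.0.1, HISAT2 2.2.1 and Trim Galore 0.6.6 and the build mm10, without saying what each did. The sources used here do not give the annotation, the strand setting or the handling of shared reads. The authors deposited a single table of FPKM values per gene and library, a unit inferred from the values because the header names none. No counts were given in it, so depth per library is unknown.

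Of 55420 entries, 7 with 3 repeated gene IDs were left out, and 94.1% of IDs matched GENCODE M21, which gave lengths, GC and coordinates. The members and gene lists were chosen with earlier results of these data known. Of 102 names matching the pattern, 13 names ending in -ps and 4 Eif2ak kinases were left out. Genes whose mean reached 1 FPKM in either group were tested on log2(FPKM + 1) with limma 3.58.1 (R 4.3.3), with a mean-variance trend, Benjamini-Hochberg adjustment over all 12528 genes and a threshold of 0.05. The fit was also run on simulated data with independent noise and spreads shuffled between genes. That setting differs from these libraries, so no conclusion is drawn from it. Ratios and shares used an exact permutation test (scipy 1.17.1), with Benjamini-Hochberg adjustment over 5 ratios. The planned Eef1a1 to Eef1a2 ratio could not be tested because Eef1a2 is listed at 0. Tests of shares and of summed FPKM were not planned, and their p-values were not adjusted. The length and GC correction removed from each library's deviations from the gene means a natural spline with 5 degrees of freedom in log2 exon length and in GC content. Identity between transcripts came from blastn 2.17.0. Promoter windows came from RefSeq (GRCm38.p6), and 47 of the 60 tested members had an entry. Values in all 6 libraries are given for both Eef1a genes, the genes of the ratios, each called member with an absolute log2 change of at least 0.5 and the most abundant member of each role, and up to 4 genes with the smallest p are named from each other list.

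Alternatives were a pseudocount of 0.1, filters (none, and 5 FPKM), a threshold of 0.01, median-of-ratios and quantile normalization, scaling to the same sum, the length correction with and without GC, no mean-variance trend, a replicate block and leaving out each library. A fit restricted to genes above 0 in all libraries was added after seeing the data. Replicate numbers did not pair the samples: the correlation of deviations between same-numbered libraries was -0.13, -0.063 and 0.32.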

Additional observations from a re-analysis of the deposited data

How the results depend on the processing

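Of the 37 called members, 18 kept their call in every alternative fit (15 higher, 3 lower). At an adjusted threshold of 0.01, members numbered 18 higher and 4 lower, all genes 1337 and 1358, and the other lists 13 and 7. Scaling to the same sum left 14 higher calls in the other lists, and the length and GC correction left 5 lower members. Quantile normalization ended 10 member calls and turned the Eef2 to Eef2k difference to -0.030. Leaving out single libraries gave 21 to 27 higher and 4 to 13 lower members, 1605 to 2422 higher and 1667 to 2851 lower genes, and 14 to 25 higher and 8 to 14 lower genes of the other lists. The difference in log2 ratio then ran from 0.72 to 0.88 for Eif4a1 to Eif4a2, -0.72 to -0.48 for Eif4e to the Eif4ebp sum, -0.39 to -0.29 for Eif3j1 to Eif3j2, 0.079 to 0.36 for Eif4g1 to Eif4g3 and 0.20 to 0.38 for Eef2 to Eef2k. With a replicate block, members numbered 28 higher and 10 lower and all genes 2265 and 2494, and the block ended no member's call. The numbers are shared names and did not pair the libraries.

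Signs changed in 18 members, 16 of them without a call. After the length and GC correction, the log2 change was -0.031 for Eef2, -0.039 for Eef2kmt, 0.11 for Eif1a, 0.36 for Eif1ax, 0.043 for Eif2a, -0.067 for Eif2b5, 0.28 for Eif2s1, 0.015 for Eif4a2, 0.36 for Eif4e, 0.26 for Eif4g2. After quantile normalization, the log2 change was 0.087 for Eef2k, -0.078 for Eif3e, -0.026 for Eif4b, -0.094 for Eif4e2, -0.047 for Eif5. After the length correction, the log2 change was 0.078 for Eef2k, 0.023 for Eif1ax, 0.10 for Eif2d, 0.058 for Eif4e, 0.031 for Eif4ebp2, 0.10 for Eif4g2. With all libraries scaled to the same sum, the log2 change was -0.019 for Eif2b5, -0.021 for Eif3e, -0.052 for Eif4e2, -0.048 for Eif4enif1, -0.039 for Eif5. Leaving out single libraries, the change ran from -0.12 to 0.026 for Eif2d, -0.095 to 0.015 for Eif4e, -0.046 to 0.16 for Eif4e2, -0.023 to 0.12 for Eif4enif1, -0.12 to 0.22 for Eif5. The cause was not tested. FPKM without counts limits what can be said of Eef1a2, Eif4ebp3 and the other members under 1 FPKM, where a listed 0 cannot be read as absence.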
